A study of Mus musculus with 20 samples.

Results

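The genes described here are 10 genes that mark the dermal condensate and the dermal papilla: Sox2, Sox18, Foxd1, Tbx18, Alx4, Hey2, Corin, Alpl, Crabp1 and Cxcr4. They were taken by name from the deposited tables, and all 10 were found among the 19807 genes listed. The dermal condensate is a cluster of fibroblasts that gathers beneath the epidermal placode when a hair follicle forms, and it is the precursor of the dermal papilla, the signalling centre at the base of the follicle. The condensate receives Wnt, Fgf and Shh signals from the epithelium, and in the adult the papilla instructs hair growth. No single gene of the 10 is restricted to these cells, and several are also known from vessels, nerve or blood cells.

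RNA was sequenced from dermis and epidermis that had been separated with EDTA. Shh wounds came from K14-CreER; LSL-Shh mice, in which tamoxifen lets basal keratinocytes express a Shh transgene (3 libraries per tissue: Tg-9101, Tg-9231 and Tg-9233). E14.5 skin was intact skin of wild type embryos labelled E14.5d and was not wounded (4 libraries per tissue: 3, 4, 5 and 7). Control wounds came from mice labelled wild type (3 libraries per tissue: Con-9097, Con-9098 and Con-9229). Wound samples of both genotypes are labelled with an age of 4 to 5 weeks, and the mice received tamoxifen. In the paper these were small wounds, a kind that normally heals with a scar. The wound tissue was taken 2 days after the scab detached. The strain background is labelled as mixed in all groups, mice of either sex were used, and a library may pool several wounds. The embryonic skin therefore differs from the wounds in age, injury and treatment at once, and these cannot be told apart.

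Values are CPM, the reads of a gene per 1000000 reads of its library. They were not divided by gene length, so levels are compared within a gene and not between genes. Libraries held 3920969 to 8002999 reads in Shh wound dermis, 16160420 to 18745431 in E14.5 dermis and 1407498 to 3752046 in control wound dermis. In epidermis they held 7167771 to 10810590, 15663677 to 16510330 and 2135041 to 7354990 reads in the same order of groups. Dermal Tg-9233 and Con-9229 and epidermal Con-9097 and Con-9229 had few detected genes (12044, 11895, 11179 and 14178 genes). Counts of differing genes in dermis are also given without them, but not in epidermis, where too few control libraries would remain. A value of 0 in a dermal control library allows a level of up to 0.8 to 2.13 CPM (3 reads), and this limit covers counting error only. Endogenous and transgenic Shh reads were not told apart: Shh was at 7.35 to 10.7 CPM in Shh wound epidermis, 4.42 to 7.76 CPM in E14.5 epidermis and 0 to 1.5 CPM in control wound epidermis. In dermis Shh was at 1.25 to 5.61, 0.0619 to 0.828 and 0 to 3.58 CPM in the same order of groups. The 6 keratinocyte markers summed to 1290 to 2000, 167 to 694 and 1640 to 2630 CPM in dermis in that order. The part of epidermal cells in the dermal values was not tested. The 6 fibroblast markers (Col1a1, Col1a2, Col3a1, Pdgfra, Lum and Dcn) summed to 231000 to 359000 CPM in Shh wound dermis, 28200 to 30100 CPM in E14.5 dermis and 256000 to 304000 CPM in control wound dermis. The 5 skeletal muscle markers summed to 23.2 to 27.4, 1270 to 4890 and 17.2 to 44 CPM in the same groups, and E14.5 library 7 held the 4890 CPM. Library 7 was also the lowest E14.5 dermal library for Sox2, Foxd1, Tbx18, Hey2 and Crabp1, and the part of muscle in these values was not tested. The 6 hair shaft keratins summed to 269 CPM in dermal Con-9097, but to 1.33 CPM in Con-9098 and 0 CPM in Con-9229. They summed to 1.31 to 5.87 CPM in Shh wound dermis. Con-9097 was the highest dermal control for Foxd1, Tbx18, Corin, Alpl and Cxcr4. It was the lowest for Sox18 and Crabp1, and between the others for Sox2, Alx4 and Hey2. The part of follicle tissue in these values was not tested. In bulk tissue, fewer cells of a type and less RNA per cell cannot be told apart.

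**Figure D1:**
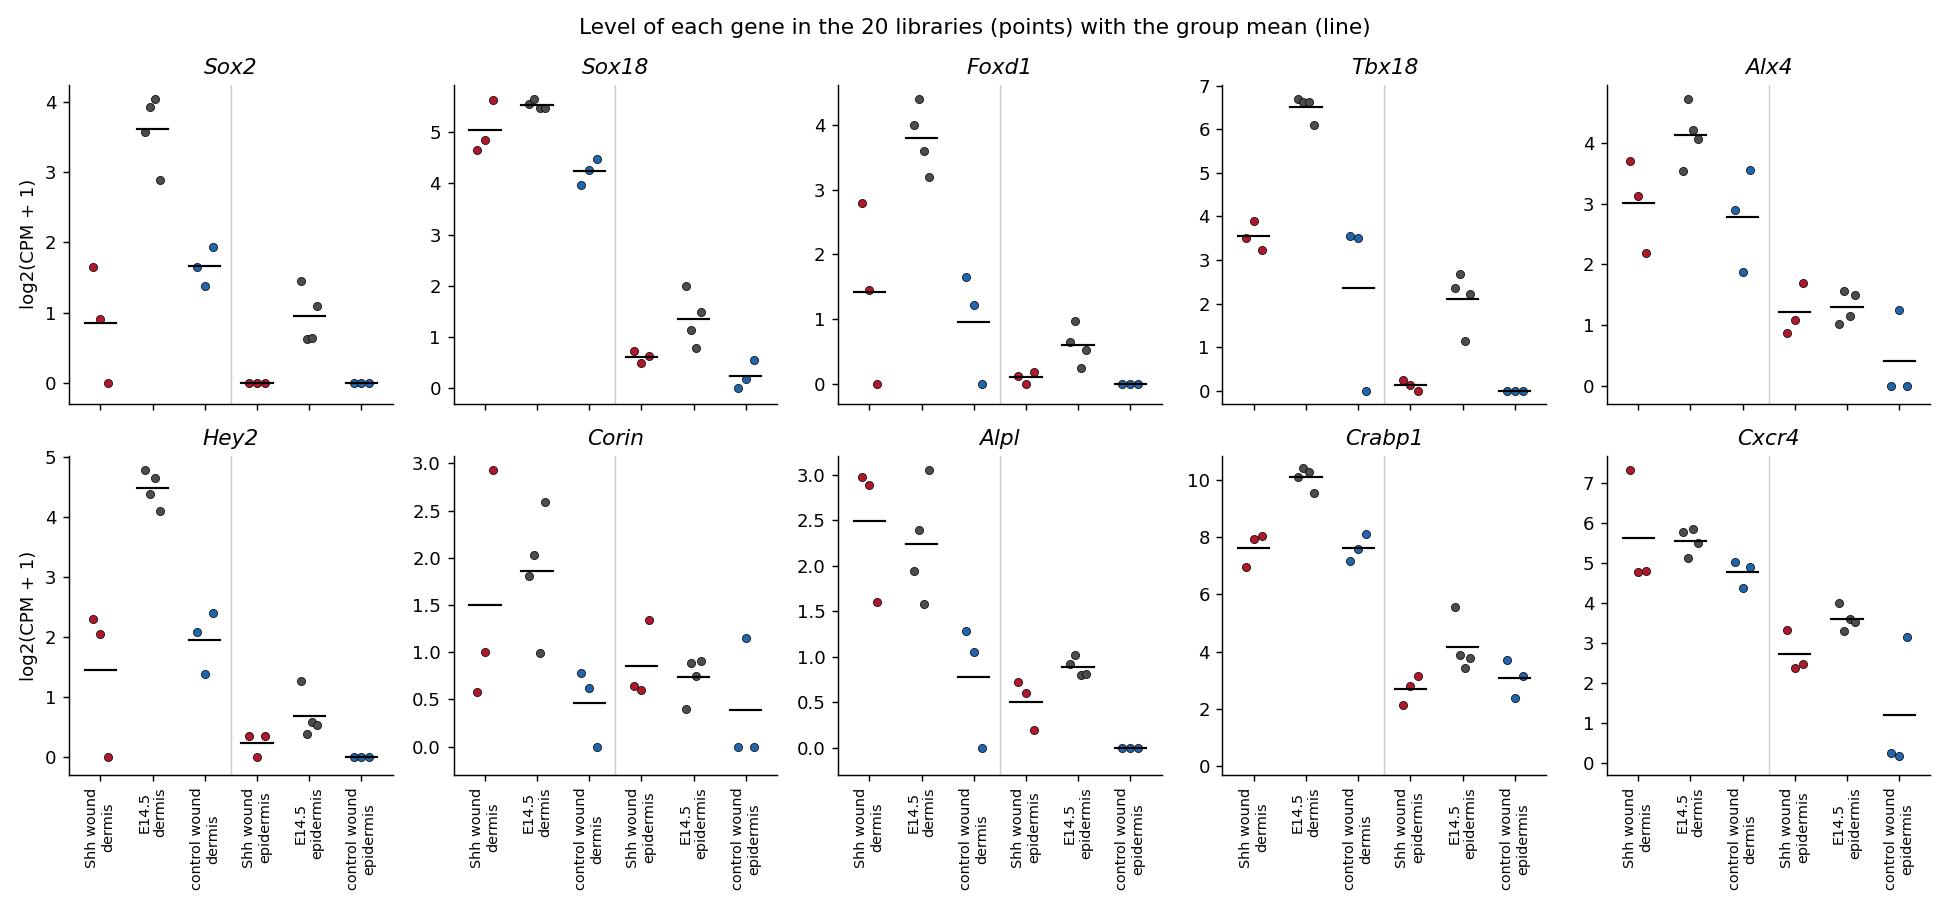
Level of each of the 10 genes as log2(CPM + 1) in the 20 libraries, with dermis left of the grey line and epidermis right of it. Points are libraries and black lines are group means of the log2 values. In dermis, Sox2, Foxd1, Tbx18, Hey2 and Crabp1 have their 4 E14.5 libraries above every wound library, while the Shh wound and E14.5 ranges of Sox18, Alx4, Corin, Alpl and Cxcr4 overlap.

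None of the 10 genes differed between Shh wound and control wound dermis by limma on log2(CPM + 1) with Benjamini-Hochberg adjustment, where 0% of 19430 genes were called. The paper reports genes as differing in this comparison from its own analysis, so an absence of calls here does not show equal levels. No member reached an unadjusted p under 0.05, against 2.81% of all genes. edgeR and DESeq2 on recovered reads also called 0 members, and 0 and 4 of all genes. For Sox18 and Alpl, every Shh wound library lay above every control library, a pattern found in 7.74% of all genes. The median difference of the 10 genes was 0.63 on the log2 scale, and that of all genes tested was 0.13. E14.5 dermis stood further from the control wounds: all 10 genes were higher, where 49.4% of genes were higher. That share depends on scaling: with TMM scaling 5 of the 10 were higher (Sox2, Foxd1, Tbx18, Hey2 and Crabp1), where 25.5% of genes were higher. Every E14.5 library was above every control library in 9 of the 10 genes, all but Alx4, against 53.2% of all genes. In Shh wound against E14.5 dermis 5 of the 10 were lower (Sox2, Foxd1, Tbx18, Hey2 and Crabp1), where 42.5% of genes were lower, and 5 with TMM scaling, where 23.7% were lower. Every Shh wound library was below every E14.5 library in 5 genes, against 47.7% of all genes, so both shares were near the background as deposited. Without Tg-9233 the count was 7, where 45.2% of genes were lower, with Sox18 (-0.78, limma, adjusted p = 0.000972) and Corin (-1.07, adjusted p = 0.0456) added. Both had a positive difference with TMM scaling and all libraries (0.15 for Sox18 and 0.08 for Corin). Without Tg-9101 the count was also 7, where 45.5% of genes were lower, with Alx4 (-1.48, adjusted p = 0.0217) and Cxcr4 added. These comparisons share the E14.5 libraries.

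The scaling shift was measured on genes averaging 50 CPM or more. Their median log2 difference was 0.91 for E14.5 minus control wound dermis and -0.77 for Shh wound minus E14.5 dermis, and 0.12 and -0.13 with TMM scaling. For Shh wound minus control wound dermis it was 0.115, and -0.01 with TMM scaling. Over all genes, 9741 were higher and 1309 lower in E14.5 than in control wound dermis, against 5024 higher and 2759 lower with TMM scaling. In Shh wound against E14.5 dermis 1594 genes were higher and 8393 lower, against 2984 higher and 4680 lower with TMM scaling. Differences below are on the log2(CPM + 1) scale, which understates the change of low genes, with the TMM value beside the members' differences from E14.5 in dermis.

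**Figure D2:**
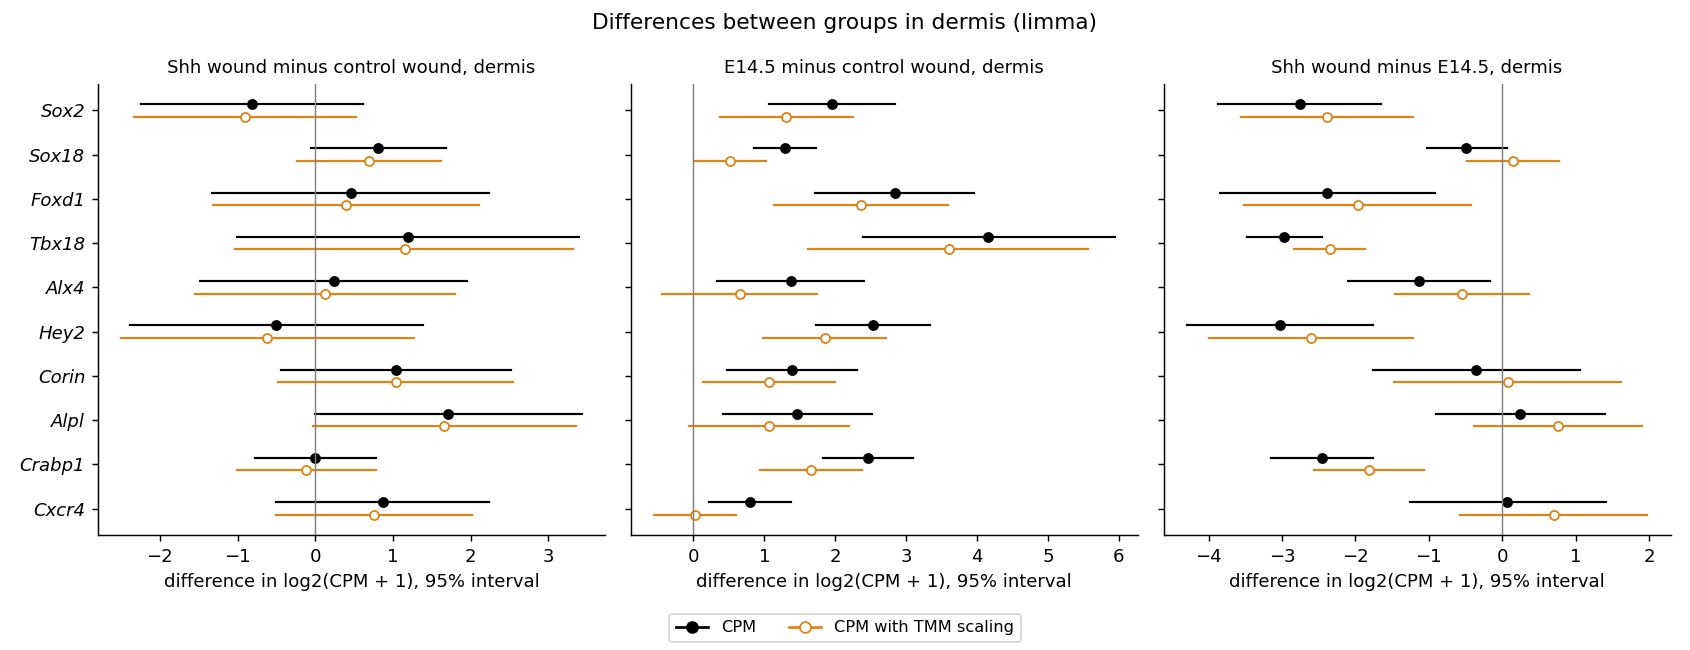
Difference in log2(CPM + 1) between groups in dermis for the 10 genes, with 95% intervals from limma. Black points are CPM as deposited and open orange points are CPM with TMM scaling. All intervals of Shh wound minus control wound include 0, while Sox2, Foxd1, Tbx18, Hey2 and Crabp1 differ from E14.5 on both scales.

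Sox2 is a transcription factor of the condensate and of the papillae of some hair types, and it is also made by Merkel cells and Schwann cells. It lies at chr3:34548927-34551383 on the plus strand (NCBIM37), inside the span of the non-coding gene Sox2ot on the same strand. Sox2ot averaged 0.494 CPM in Shh wound dermis, 1.46 CPM in E14.5 dermis and 0.327 CPM in control wound dermis. Dermal Sox2 was at 2.13, 0.875 and 0 CPM in Shh wounds Tg-9101, Tg-9231 and Tg-9233, at 10.9, 14.3, 15.5 and 6.43 CPM in E14.5 libraries 3, 4, 5 and 7, and at 2.15, 1.6 and 2.84 CPM in control wounds Con-9097, Con-9098 and Con-9229. All 4 E14.5 libraries were above all wound libraries, and the wound groups overlapped at 0 to 13 reads per library. Sox2 was 2.76 ± 0.48 (SE) lower on the log2 scale in Shh wound than in E14.5 dermis (limma, log2 difference -2.76, adjusted p = 0.00201; -2.39 and 0.0071 with TMM scaling). It was 1.96 ± 0.39 higher in E14.5 than in control wound dermis (limma, adjusted p = 0.00316; 1.31 and 0.034 with TMM scaling). The difference between Shh and control wounds was -0.81 with an interval of -2.24 to 0.62. Summed Schwann cell markers were 82.1 to 128 CPM in Shh wound, 135 to 175 CPM in E14.5 and 77.6 to 178 CPM in control wound dermis, so that E14.5 lay within the control range. The Merkel markers Krt20, Atoh1 and Pou4f3 were not found by name among the genes listed. The other 3 (Krt8, Krt18 and Isl1) summed to 0.25 to 11.7, 6.43 to 13.2 and 0 to 0.358 CPM in the same groups. Only 1 of the 3 was detected in each Shh wound library, 2 to 3 in E14.5 and 0 to 1 in control wounds. The 11.7 CPM was in Tg-9233, where Sox2 was at 0. The part of these cells in the Sox2 values was not tested.

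Sox18 is a transcription factor of vascular and lymphatic endothelium that is also found in the papilla. It lies at chr2:181404541-181406345 on the minus strand. Dermal Sox18 was at 24.1, 27.7 and 48.7 CPM in Shh wounds Tg-9101, Tg-9231 and Tg-9233, at 45.5, 48.8, 43.3 and 43.3 CPM in E14.5, and at 14.7, 18.1 and 21.3 CPM in control wounds. Shh wounds lay between the other groups in 2 libraries and within the E14.5 range in Tg-9233. The means were 33.5 ± 13.3 CPM in Shh wounds (SD, n = 3), 45.2 ± 2.62 CPM in E14.5 (SD, n = 4) and 18 ± 3.33 CPM in control wounds (SD, n = 3). The difference between Shh and control wounds was 0.81 ± 0.39 (limma, unadjusted p = 0.0648, adjusted p = 0.958), and it was 0.51 without Tg-9233. E14.5 was 1.29 higher than control wounds (limma, adjusted p = 0.00071), a call that was lost with TMM scaling (0.52, adjusted p = 0.0935). Shh wounds differed from E14.5 by -0.49 (limma, adjusted p = 0.123; 0.15 and 0.702 with TMM scaling). The 8 endothelial markers summed to 445 to 654 CPM in Shh wound, 851 to 953 CPM in E14.5 and 193 to 353 CPM in control wound dermis, where 6 to 8 of them were detected. Of the 8, 7 were higher and 1 (Vwf) was lower in E14.5 than in control wounds by limma, and 0 were called between Shh and control wounds, with 5 at an unadjusted p under 0.05. Their part in the Sox18 values was not tested.

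The other SoxF genes, Sox7 and Sox17, which share endothelial roles with Sox18, are given beside it. Dermal Sox17 averaged 17.4 ± 8.4 CPM in Shh wounds (SD, n = 3), 19.1 ± 3.12 CPM in E14.5 (SD, n = 4) and 7.07 ± 6.34 CPM in control wounds (SD, n = 3), 1 of which was at 0. Dermal Sox7 averaged 15.5, 20.9 and 12.7 CPM in the same groups, and its higher level in E14.5 than in control wounds (0.69, limma, adjusted p = 0.028) was lost with TMM scaling (-0.07, adjusted p = 0.836). In epidermis Sox7 averaged 157 CPM in Shh wounds, 0.878 CPM in E14.5 and 144 CPM in control wounds, where Sox18 averaged 0.538, 1.69 and 0.201 CPM. Sox7 was lower in E14.5 than in control wound epidermis (-6.26, limma, adjusted p = 8.64e-06). Sox21, related to Sox2, averaged 53.7 CPM in Shh wound, 8.65 CPM in E14.5 and 51.6 CPM in control wound epidermis, where wound Sox2 was at 0.

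Foxd1 is a forkhead factor known from embryonic stromal cells and from the condensate. It lies at chr13:99124200-99126660 on the plus strand. Dermal Foxd1 was at 5.9, 1.75 and 0 CPM in Shh wounds Tg-9101, Tg-9231 and Tg-9233, at 14.9, 20, 11.1 and 8.14 CPM in E14.5, and at 2.15, 1.33 and 0 CPM in control wounds. The zeros fell on Tg-9233 and Con-9229, both libraries with few detected genes. Foxd1 was lower in Shh wound than in E14.5 dermis (-2.38 ± 0.64, limma, adjusted p = 0.0144), also with TMM scaling (-1.97, adjusted p = 0.049), but not past the threshold by edgeR (adjusted p = 0.116) or DESeq2 (adjusted p = 0.0589). It was 2.84 ± 0.49 higher in E14.5 than in control wounds (limma, adjusted p = 0.00164; 2.36 and 0.00952 with TMM scaling). The difference of Shh from control wounds was 0.46 with an interval of -1.33 to 2.24, and it was -0.23 without Tg-9101 and -0.02 without Con-9229. Of its relatives, Foxd2 stayed at 0.871 to 2.41 CPM in the dermal group means. Foxd3, known from neural crest and Schwann cell precursors, averaged 6.11 CPM in Shh wound, 19.4 CPM in E14.5 and 11.3 CPM in control wound dermis.

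Tbx18 is a T-box factor of dermal precursors and of the mural cells around vessels. It lies at chr9:87597635-87626095 on the minus strand. Dermal Tbx18 was at 10.3, 14 and 8.42 CPM in Shh wounds, at 102, 98.1, 98.5 and 68 CPM in E14.5, and at 10.7, 10.4 and 0 CPM in control wounds Con-9097, Con-9098 and Con-9229. Every E14.5 library was above every wound library, and the wound groups overlapped, with Con-9229 below the rest. Tbx18 was 2.97 ± 0.22 lower on the log2 scale in Shh wound than in E14.5 dermis (limma, log2 difference -2.97, adjusted p = 4.64e-05; -2.35 and 0.000124 with TMM scaling). It was 4.16 higher in E14.5 than in control wounds (limma, adjusted p = 0.00233; 3.6 and 0.0119 with TMM scaling), and 2.99 higher without Con-9229 (adjusted p = 4.65e-06). Against control wounds, Shh wounds differed by 1.19, and by 0.02 without Con-9229. Summed mural cell markers were 939 to 1210 CPM in Shh wound, 658 to 840 CPM in E14.5 and 581 to 967 CPM in control wound dermis. Of the 6 markers, 2 were higher and 1 lower in E14.5 than in control wounds by limma, and 1 higher and 3 lower with TMM scaling. The part of mural cells in the Tbx18 and Foxd1 values was not tested. Tbx15, the relative that shapes dorsal and ventral skin, averaged 66.4 ± 5.27 CPM in Shh wound (SD, n = 3), 193 ± 25.7 CPM in E14.5 (SD, n = 4) and 60.8 ± 21.9 CPM in control wound dermis (SD, n = 3). It was higher in E14.5 than in control wounds (1.71, limma, adjusted p = 0.000756; 0.92 and 0.0082 with TMM scaling) and lower in Shh wounds than in E14.5 (-1.52, adjusted p = 0.00012; -0.88 and 0.00179 with TMM scaling).

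Alx4 is a paired-like homeobox factor of limb, skull and follicle mesenchyme. It lies at chr2:93482541-93521496 on the plus strand. Dermal Alx4 was at 12, 7.75 and 3.57 CPM in Shh wounds, at 10.6, 25.4, 17.6 and 15.7 CPM in E14.5, and at 6.44, 2.67 and 10.7 CPM in control wounds. All 3 groups overlapped. E14.5 was 1.37 higher than control wounds (limma, adjusted p = 0.0306), which did not hold with TMM scaling (0.65, adjusted p = 0.308), and the call was lost in 5 of the 7 cases in which 1 library was left out (0.92 to 1.75). Shh wounds differed from E14.5 by -1.13 (limma, adjusted p = 0.0543; -0.55 and 0.301 with TMM scaling) and from control wounds by 0.24, with an interval of -1.48 to 1.95.

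Hey2 is an effector of Notch signalling in vessels, heart and the condensate. It lies at chr10:30552165-30562607 on the minus strand. Dermal Hey2 was at 3.93, 3.12 and 0 CPM in Shh wounds Tg-9101, Tg-9231 and Tg-9233, at 26.5, 19.8, 24.3 and 16.1 CPM in E14.5, and at 3.22, 1.6 and 4.26 CPM in control wounds. E14.5 lay above all wounds, and the wound groups overlapped. Hey2 was lower in Shh wound than in E14.5 dermis (-3.03 ± 0.56, limma, adjusted p = 0.00251; -2.6 and 0.0107 with TMM scaling) and higher in E14.5 than in control wounds (2.53 ± 0.35, adjusted p = 0.000527; 1.85 and 0.00601 with TMM scaling). Shh and control wounds differed by -0.5, and by 0.22 without Tg-9233. Hey1, the closest relative, averaged 5.66 ± 2.09 CPM in Shh wound (SD, n = 3), 49.3 ± 10.7 CPM in E14.5 (SD, n = 4) and 2.05 ± 1.78 CPM in control wound dermis (SD, n = 3), while Heyl averaged 48.4, 47.1 and 34.8 CPM. Hey1 was 4.28 higher in E14.5 than in control wounds (limma, adjusted p = 0.000264; 3.75 and 0.00167 with TMM scaling) and Heyl did not pass the test (0.42, adjusted p = 0.0674; -0.36 with TMM scaling). Among all 11 relatives and partners, 6 were higher and 0 lower in E14.5 than in control wound dermis by limma, near the 49.4% of all genes that were higher. With TMM scaling 5 were higher, where 25.5% of all genes were higher, and 1 was lower, where 14% were lower. The part of endothelial cells, whose marker sums are given with Sox18, in the Hey2 values was not tested. Hey2 and Sox2 varied together over the 10 dermal libraries (Pearson r = 0.966 on the log2 scale, a description in which the 4 E14.5 libraries set the range).

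**Figure D3:**
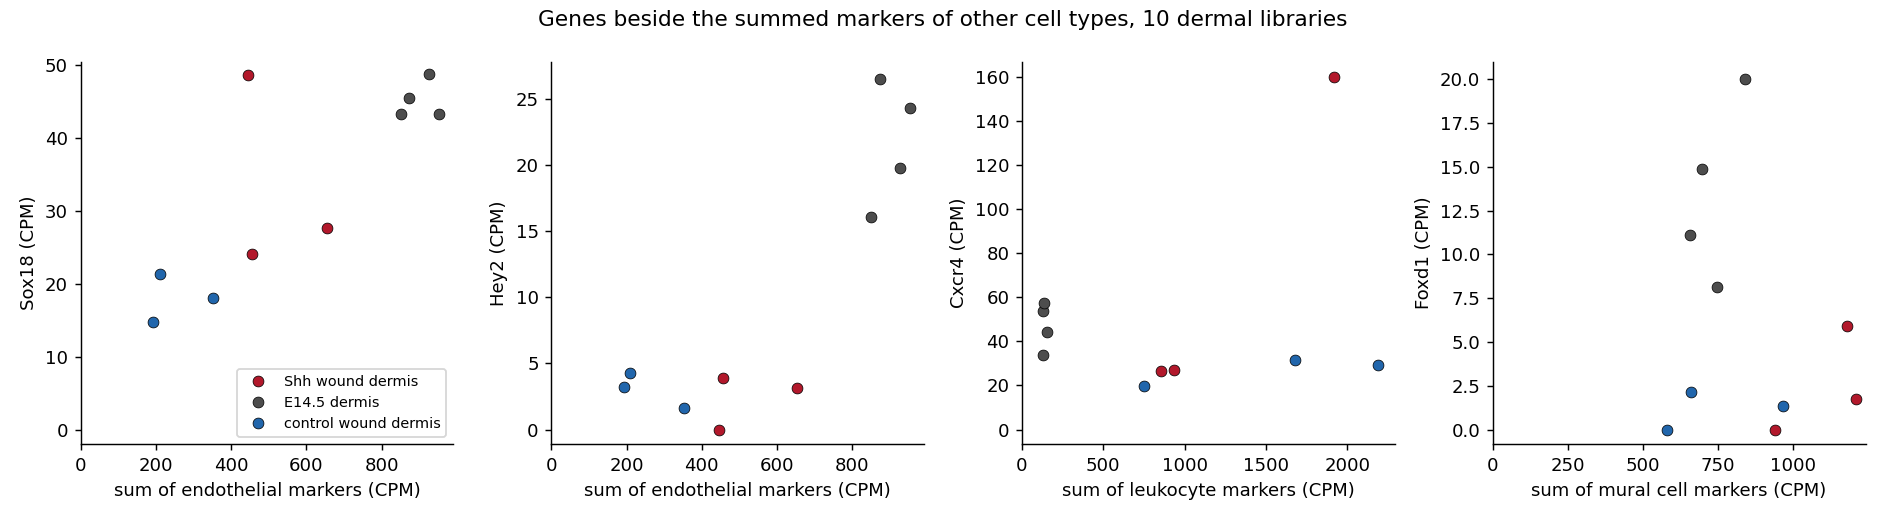
Level of Sox18, Hey2, Cxcr4 and Foxd1 (CPM, linear axes) against the summed CPM of endothelial, endothelial, leukocyte and mural cell markers in the 10 dermal libraries. Each point is a library, and colours are the 3 groups. Sox18 of Shh wounds lies above the controls, as their endothelial sum does. The Cxcr4 value of 160 CPM belongs to Tg-9101, which has a leukocyte sum of 1920 CPM, and Con-9229 has 29.1 CPM of Cxcr4 at a leukocyte sum of 2190 CPM.

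Corin is a serine protease of heart and papilla that in the papilla acts on coat colour. It lies at chr5:72691264-72895712 on the minus strand. Dermal Corin was at 0.492, 1 and 6.63 CPM in Shh wounds Tg-9101, Tg-9231 and Tg-9233, at 2.51, 3.09, 0.99 and 5.01 CPM in E14.5, and at 0.715, 0.533 and 0 CPM in control wounds. Only Tg-9233, with 26 reads, stood above the E14.5 range. The difference of Shh from control wounds was 1.04 ± 0.66 (limma, adjusted p = 0.958) and 0.32 without Tg-9233. E14.5 was 1.39 higher than control wounds (limma, adjusted p = 0.0175), which was lost with TMM scaling (1.06, adjusted p = 0.0706). Shh wounds differed from E14.5 by -0.35 (limma, adjusted p = 0.656; 0.08 and 0.942 with TMM scaling). The control libraries held 0 to 2 reads of Corin.

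Alpl encodes tissue-nonspecific alkaline phosphatase, whose activity is the classical stain for the papilla. It lies at chr4:137297648-137352299 on the minus strand. Dermal Alpl was at 6.88, 6.37 and 2.04 CPM in Shh wounds (42, 51 and 8 reads), at 2.83, 4.25, 1.98 and 7.29 CPM in E14.5, and at 1.43, 1.07 and 0 CPM in control wounds (4, 4 and 0 reads). Every Shh wound library was above every control and within the range of E14.5. The difference of Shh from control wounds was the highest of the 10 genes, 1.71 ± 0.77 (limma, unadjusted p = 0.0505, adjusted p = 0.958), and stayed between 1.32 and 2.15 when each library was left out in turn. Shh wounds and E14.5 differed by 0.25, with an interval of -0.9 to 1.4 (0.76 with TMM scaling). E14.5 was 1.46 higher than control wounds (limma, adjusted p = 0.0253; 1.06 and 0.121 with TMM scaling), a call lost in 2 of the 7 cases in which 1 library was left out. In epidermis Alpl was at 0.648, 0.51 and 0.14 CPM in Shh wounds (7, 5 and 1 reads) and at 0 reads in all 3 control wounds. The Shh wound mean was 2.14-fold the level of 3 reads over the control group (0.202 CPM), and Tg-9233 lay below that level. Here as well every Shh wound library was above every control library, as for 14.3% of genes, and the adjusted p was 0.439.

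Crabp1 binds retinoic acid in the cytoplasm and is abundant in embryonic and papilla fibroblasts. It lies at chr9:54612555-54620917 on the plus strand. Dermal Crabp1 was at 123, 243 and 260 CPM in Shh wounds, at 1110, 1370, 1240 and 753 CPM in E14.5, and at 144, 193 and 276 CPM in control wounds. The wound groups overlapped fully and E14.5 lay apart. With 389 to 1944 reads per wound library, its difference of Shh from control wounds was 0 with an interval of -0.77 to 0.78. It was lower in Shh wound than in E14.5 dermis (-2.46 ± 0.3, limma, adjusted p = 0.000379; -1.81 and 0.00329 with TMM scaling) and higher in E14.5 than in control wounds (2.46 ± 0.28, adjusted p = 0.000203; 1.66 and 0.00429 with TMM scaling). Crabp2, the relative that delivers retinoic acid to its nuclear receptor, averaged 2 ± 1.73 CPM in Shh wound (SD, n = 3), 48.4 ± 2.76 CPM in E14.5 (SD, n = 4) and 4.18 ± 3.2 CPM in control wound dermis (SD, n = 3). In epidermis Crabp2 averaged 96.4 CPM in Shh wound, 10 CPM in E14.5 and 97.6 CPM in control wound, and Crabp1 averaged 5.8, 20.6 and 8.06 CPM. The Crabp1 mean of E14.5 epidermis was 12.2 CPM without library 3, and its difference from control wounds did not pass (1.09, limma, adjusted p = 0.126; 0.6 and 0.382 with TMM scaling). Crabp2 was lower in E14.5 than in control wound epidermis (-3.21, limma, adjusted p = 9.1e-05).

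Promoter sequences of RefSeq (GRCm38.p6, 250 bases before to 50 after the gene start) were matched to 8 of the 10 genes, Sox18 and Alx4 being the unmatched ones, and Alpl has 2 starts. They were searched on both strands for the 7-letter GLI core CCACCCA, since GLI factors carry the response to Shh, and for the TCF/LEF motif CTTTGAA, since Wnt signals precede the condensate. The 2 motifs cannot be read from the same letters. The GLI core was in 1 of the 9 member promoters, that of Crabp1, and in 9.3% of 32851 promoters of the same length. The TCF/LEF motif was in 0 member promoters and in 5.14% of all. The Crabp1 promoter is shown as the only match, with the motif in capitals (GRCm38.p6, chr9:54764498-54764797, plus strand). The motif starts at -201 relative to the gene start.
Crabp1: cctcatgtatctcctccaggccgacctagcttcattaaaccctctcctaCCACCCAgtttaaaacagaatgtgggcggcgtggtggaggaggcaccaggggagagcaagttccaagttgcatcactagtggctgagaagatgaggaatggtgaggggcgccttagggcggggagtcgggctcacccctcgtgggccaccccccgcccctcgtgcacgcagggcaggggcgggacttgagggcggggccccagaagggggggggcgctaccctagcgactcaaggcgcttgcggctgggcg

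Cxcr4 is the receptor of the chemokine Cxcl12 and is carried by leukocytes, endothelial tip cells and the condensate. It lies at chr1:130484776-130488870 on the minus strand. Dermal Cxcr4 was at 160, 26.6 and 27 CPM in Shh wounds Tg-9101, Tg-9231 and Tg-9233, at 54, 33.9, 57.5 and 44.3 CPM in E14.5, and at 31.8, 19.7 and 29.1 CPM in control wounds. Tg-9101 stood alone, and the other 2 Shh libraries lay within the control range. The difference of Shh from control wounds was 0.87 ± 0.62 (limma, adjusted p = 0.958), and 0.02 without Tg-9101. Against E14.5 it was 0.07 (0.71 with TMM scaling), and -0.77 without Tg-9101 (adjusted p = 0.0273). E14.5 was 0.8 higher than control wounds (limma, adjusted p = 0.025), less than the shift of all well expressed genes, and 0.02 with TMM scaling (adjusted p = 0.964). That call was lost in 4 of the 7 cases in which 1 library was left out. Leukocyte markers summed to 857 to 1920 CPM in Shh wound, 128 to 151 CPM in E14.5 and 750 to 2190 CPM in control wound dermis, and their part in Cxcr4 was not tested. The ligand Cxcl12 averaged 57.6 ± 16.2 CPM in Shh wound (SD, n = 3), 159 ± 16.3 CPM in E14.5 (SD, n = 4) and 47.3 ± 4.48 CPM in control wound dermis (SD, n = 3). It was 1.73 higher in E14.5 than in control wounds (limma, adjusted p = 7.19e-05; 0.93 and 0.00378 with TMM scaling). Cxcr7, the scavenging receptor of the same ligand, averaged 7.56, 38.7 and 4.45 CPM in dermis and 9.62, 40.6 and 10.2 CPM in epidermis in the same order of groups.

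**Figure D4:**
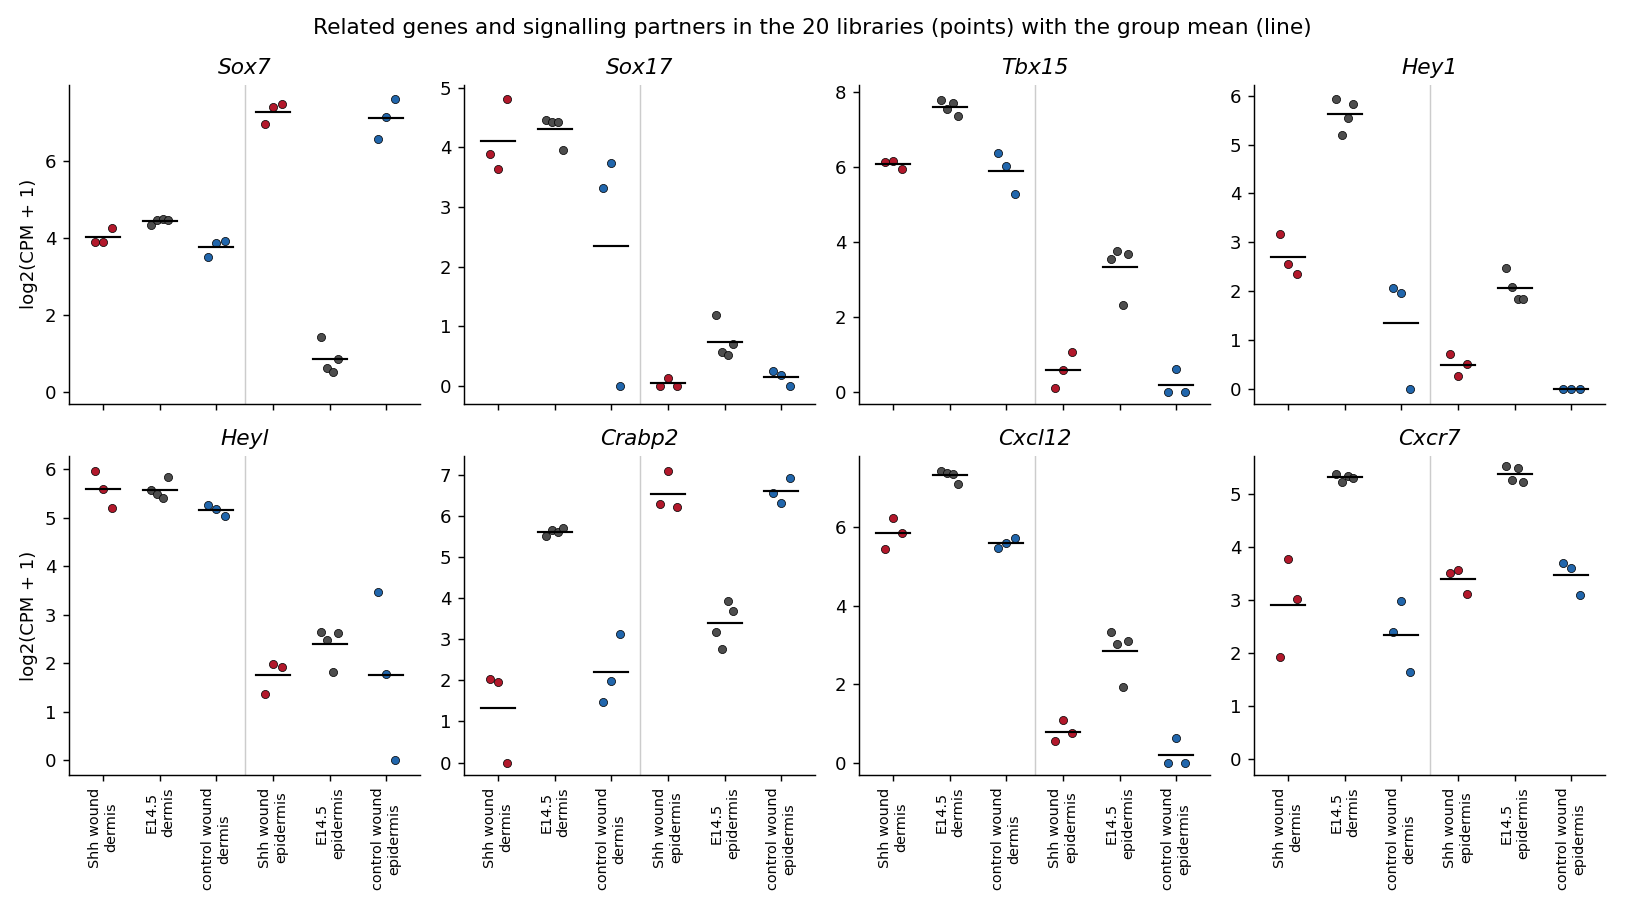
Level of relatives and signalling partners of the 10 genes as log2(CPM + 1) in the 20 libraries, with dermis left of the grey line. Points are libraries and black lines are group means of the log2 values. Hey1, Crabp2, Cxcl12 and Cxcr7 are highest in E14.5 dermis among the dermal groups, while Sox7 and Crabp2 are high in wound epidermis.

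The genes were compared between dermis and epidermis within each group. In E14.5 skin all 10 were higher in dermis, where 31.9% of genes were higher, and all 10 kept that call under every setting tried. The difference was 5.92 for Crabp1, 4.42 for Tbx18 and 4.17 for Sox18, and it was lowest for Corin at 1.12 (limma, adjusted p = 0.00568). In Shh wounds 6 were higher in dermis, where 13.4% of genes were higher: Sox18, Tbx18, Alx4, Crabp1, Cxcr4 and Alpl. With the animal number as a block the count was 5, since Alx4 no longer passed. Leaving out dermal Tg-9233 raised the count to 9, and leaving out epidermal Tg-9231 or Tg-9233 lowered it to 3. In control wounds 5 were higher in dermis, where 10.5% of genes were higher: Sox2, Sox18, Crabp1, Hey2 and Cxcr4. That count was 3 without dermal Con-9097 or without any 1 of the 3 epidermal controls, and 7 without dermal Con-9229. All genes called also moved with these omissions, in either direction of difference. They ran from 4652 to 9351 in Shh wounds and from 3396 to 4776 in control wounds, so the swing in members is not particular to them. No member was lower in dermis in any of the 3 groups.

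In wound epidermis most of the 10 genes had few or no reads, and Crabp1 and Cxcr4 had the most. Sox2 had 0 reads in all 6 wound libraries, and Tbx18, Foxd1, Hey2 and Alpl had 0 reads in all 3 control libraries. Between Shh and control wound epidermis 0 of the 9 members tested differed (0% of 19252 genes; limma), 1 had an unadjusted p under 0.05 (Alpl), against 9.59% of all genes, and edgeR and DESeq2 called 0 members. Shh itself was not called by limma there, at 7.35 to 10.7 CPM in Shh wounds and 0 to 1.5 CPM in control wounds. The absence of calls therefore does not show equal levels. Compared with control wound epidermis, 7 of the 10 were higher in E14.5 epidermis, where 47.7% of genes were higher: Sox2, Sox18, Tbx18, Foxd1, Hey2, Cxcr4 and Alpl. With TMM scaling the count was 6, where 33.6% were higher, and every E14.5 library was above every control library in 7 of the 10, against 50.5% of all genes. The E14.5 mean of Tbx18 was 17.8-fold, and that of Sox2 4.89-fold, the level of 3 reads over the control group. The E14.5 levels were low, with 3.6 ± 1.74 CPM of Tbx18 and 0.987 ± 0.562 CPM of Sox2 (SD, n = 4). Of the 5 members with a mean of at least 1 CPM, 3 were called. Without the epidermal Con-9097 and Con-9229 only 1 control library remained, so no count is given for that fit. Shh wound epidermis was lower than E14.5 in 6 members (Sox2, Sox18, Tbx18, Crabp1, Foxd1 and Cxcr4), where 51.7% of genes were lower, and in 2 with TMM scaling, where 35.7% were lower. Every Shh wound library was below every E14.5 library in 7 members, against 51.1% of all genes. Fibroblast markers in epidermis summed to 1130 to 3490 CPM in Shh wound, 783 to 2340 CPM in E14.5 and 647 to 3270 CPM in control wound, so fibroblast transcripts were present in all 3 groups. Their part in these values was not tested.

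Whether the dermal difference exceeded the epidermal one was tested as an interaction. For E14.5 minus control wound it was called for 2 genes, where 12.7% of all genes were higher: Foxd1 (2.24 ± 0.55, limma, adjusted p = 0.00949) and Hey2 (1.84 ± 0.48, adjusted p = 0.0128). Both had 0 reads in control wound epidermis, and neither passed with a pseudocount of 0.25 (adjusted p = 0.146 for Foxd1 and 0.329 for Hey2). With TMM scaling Foxd1 passed (1.89, adjusted p = 0.0373) and Hey2 did not (1.31, adjusted p = 0.0718). The direction turned by edgeR (-2.92 for Foxd1 and -3.64 for Hey2) and DESeq2 (-0.5 and -1.25), neither past the threshold. For Shh minus control wound the interaction was called for 0 members and 0% of genes by limma, 0 members had an unadjusted p under 0.05, and edgeR and DESeq2 called 0 members.

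Among 28 other genes of the condensate and papilla, 0 differed between Shh and control wound dermis by limma. Of these genes 7 had an unadjusted p under 0.05, where 2.81% of all genes had. Their median difference was 0.35, against 0.13 for all genes. The list includes Bmp7, Enpp2, Lamc3 and Trps1, which the paper reported as raised in Shh wound dermis from this RNA-seq experiment. Gli1 and Ptch1, which the paper lists for the same comparison, are on it too. From its own analysis the paper reports the Shh pathway as upregulated in both tissues, and it measured the papilla genes by qPCR as well. The list was therefore not independent of these data. The 7 genes and the median difference cannot serve as a test against all genes. E14.5 dermis was higher than control wounds in 19 of the 28, where 49.4% of all genes were higher, and lower in 0, with a median of 1.81 against 0.78 for all genes. With TMM scaling 15 were higher, where 25.5% of all genes were higher, and 4 lower. The smallest adjusted p belonged to the Wnt inhibitor Wif1 (4.12, adjusted p = 4.27e-05), the growth factor Fgf10 (4.21, adjusted p = 0.000154) and the proteoglycan Sdc1 (1.32, adjusted p = 0.000301). Shh wounds were lower than E14.5 in 19, where 42.5% of all genes were lower, and higher in 3. With TMM scaling they were lower in 11, where 23.7% of all genes were lower, and higher in 4. The 3 higher were Trps1 (1.59, limma, adjusted p = 0.000368), Lamc3 (1.94, adjusted p = 0.000754) and Inhba (1.07, adjusted p = 0.0458). The 3 lower with the smallest adjusted p were Igfbp4 (-2.18), Edn3 (-2.65) and Fgf10 (-4.12). Lamc3, a laminin chain, averaged 52 ± 7.17 CPM in Shh wound (SD, n = 3), 13.2 ± 4.84 CPM in E14.5 (SD, n = 4) and 11.1 ± 9.64 CPM in control wound dermis (SD, n = 3).

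E14.5 dermis had the highest mean in Sox2, Sox18, Tbx18, Alx4, Corin, Crabp1, Foxd1 and Hey2, and Shh wound dermis in Cxcr4 and Alpl. For Cxcr4 this rests on Tg-9101, without which the Shh wound mean was 26.8 CPM, against 47.4 CPM in E14.5 and 26.9 CPM in control wounds. The E14.5 range did not overlap that of the next group in Sox2, Tbx18, Crabp1, Foxd1 and Hey2, and overlapped that of Shh wound dermis in Sox18, Alx4, Corin, Cxcr4 and Alpl. Over the 10 dermal libraries, the genes with the most similar profile (Pearson r of log2(CPM + 1), among 11965 genes averaging 5 CPM or more) were Uba6, Lpar1 and Zdhhc2 for Sox2 (r = 0.98 each), Mme for Tbx18 (r = 0.997), Fbln1 for Crabp1 (r = 0.993), Tmem106b for Hey2 (r = 0.998) and Mib1 for Foxd1 (r = 0.988). For the others the first were Ptcd1 for Sox18 (r = 0.986), Prcp for Alx4 (r = 0.948), G6pc3 for Corin (r = 0.942), Metap1d for Alpl (r = 0.93) and Rnaseh2a for Cxcr4 (r = 0.926). Over all 20 libraries the first were Mmrn1 for Sox2 (r = 0.982), Arhgef15 for Sox18 (r = 0.991) and St6galnac3 for Crabp1 (r = 0.976). These values are descriptions over libraries that fall into groups by stage and depth.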

How the data were processed

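RNA was measured by stranded, ribosome-depleted RNA-seq with paired reads of 50 bases. The deposited values are CPM that the authors made from gene counts, and the submitters' processing notes name Bowtie, SAMtools, HTSeq and build NCBIM37, with no versions given in the sources used here. Every CPM value was a whole multiple of the value of 1 read (100% within a tolerance of 0.01), so reads were recovered for count tests. The authors' own fold changes and p-values were not used, and 1 column of no listed sample was left out.

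Log2(CPM + 1) of genes with at least 1 read was tested with limma 3.58.1 in R 4.3.3, with a variance trend and Benjamini-Hochberg adjustment over all genes tested, called at 0.05. Alternatives were a pseudocount of 0.25, a mean of at least 1 CPM, TMM scaling, no variance trend, edgeR 4.0.16, DESeq2 1.42.0, all 3 groups in 1 fit, the animal number as a block or a series term, and leaving out libraries. Leaving out the library with few detected genes from Shh wound minus E14.5 dermis was chosen after seeing the data. The fits were tested on simulated counts, with changes planted only in genes above a CPM minimum. The simulation used 1 fixed dispersion and no scaling shift, so it does not cover low genes or the shift seen here. Dermis and epidermis libraries with the same number were taken as 1 animal, which the labels do not say. Deviations of such pairs from their group means correlated between -0.012 and 0.388 over 12374 genes. Pairs with different numbers correlated between -0.272 and 0.189, so the ranges overlap and the pairing is uncertain. No pair of libraries was a duplicate. Nothing in the labels says that E14.5 libraries or wounds were separate litters or cultures, so p-values measure the spread between these libraries, which may be technical in part. Members were named in full, and of the other lists the genes with the smallest adjusted p. The members and lists were chosen with earlier results of these data known.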

Additional observations from a re-analysis of the deposited data

Results flagged for a closer look

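Of the 20 groups of 4 libraries tested for a library far from the rest, 3 had one, where chance gives about 1 in 20. Tbx18 in E14.5 dermis was lowest in library 7, at 68 CPM, where the other 3 libraries were at 98.1 to 102 CPM. Skeletal muscle markers summed to 4890 CPM in library 7 and to 1270 to 2070 CPM in the others, and their part in the Tbx18 value was not tested. Crabp1 in E14.5 epidermis was highest in library 3, at 46 CPM, where the others were at 9.79 to 13.9 CPM. Hey2 in E14.5 epidermis was highest in library 3 as well, at 1.4 CPM, where the others were at 0.303 to 0.49 CPM.

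By limma, the E14.5 minus control wound difference was larger in dermis than in epidermis for Foxd1 (by 2.24 on the log2 scale, limma, adjusted p = 0.00949) and Hey2 (by 1.84, adjusted p = 0.0128), by a test of the difference itself. Both genes had 0 reads in control wound epidermis. The direction turned by edgeR (-2.92 for Foxd1, -3.64 for Hey2) and DESeq2 (-0.50 and -1.25), and Hey2 did not pass with TMM scaling (1.31, adjusted p = 0.0718).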

How the results depend on the processing

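Of the members called by limma, those higher in E14.5 than in control wound dermis numbered 10 (49.4% of all genes). They numbered 5 with TMM scaling (25.5% of all genes), 5 by edgeR and 6 by DESeq2. In epidermis the 7 (47.7% of all genes) became 3 with a mean of at least 1 CPM, 3 by edgeR and 4 by DESeq2. The 6 lower in Shh wound than in E14.5 epidermis (51.7%) became 2 with TMM scaling (35.7%), 2 by edgeR and 3 by DESeq2. The 2 members with an E14.5 interaction (12.7%) became 0 with a pseudocount of 0.25, 1 with TMM scaling (10.7%), 0 by edgeR and 0 by DESeq2. Shares of all genes are not given here for the other settings, so a fall in members there is not set apart from a general one.

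Without Tg-9233 and Con-9229 the direction turned for Hey2 in Shh minus control wound dermis (0.45). In Shh wound minus E14.5 dermis it turned for Sox18 (0.15 with TMM scaling, 0.24 by edgeR, 0.20 by DESeq2) and Corin (0.08, 0.53 and 0.57). The interaction of Foxd1 was -2.92 by edgeR and -0.50 by DESeq2, and that of Hey2 -3.64 and -1.25. Both had 0 reads in control wound epidermis. The cause of these and the other changes was not tested.

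With each library left out in turn, the members called numbered 0 to 0, 7 to 10 and 5 to 7 in dermis (Shh minus control, E14.5 minus control, Shh minus E14.5), 0 to 0, 6 to 7 and 4 to 7 in epidermis, 3 to 9, 10 to 10 and 3 to 7 for dermis minus epidermis (Shh wound, E14.5, control wound), and 2 to 3 and 0 to 0 for the E14.5 and Shh interactions. All genes called, in either direction, numbered 0 to 0, 9235 to 12085 and 8073 to 11598 in dermis in that order. In epidermis they numbered 0 to 15, 10044 to 12667 and 13318 to 13906. For dermis minus epidermis they numbered 4652 to 9351, 12477 to 13211 and 3396 to 4776. Shh minus control wound dermis ran from -0.21 to 0.64 for Alx4, -0.23 to 1.16 for Foxd1 and -0.93 to 0.22 for Hey2, and Shh wound minus E14.5 dermis from -1.07 to 0.11 for Corin and -0.77 to 0.50 for Cxcr4.

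With the animal number as a block, the members higher in dermis numbered 5 in Shh wounds, 10 in E14.5 and 5 in control wounds, and the interactions 2 and 0, so pairing changed no other count.

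Over all genes, 0 were called between Shh and control wound dermis, 4 by DESeq2 and 1 without Tg-9233 and Con-9229. In epidermis 0 were called, 8 with a mean of at least 1 CPM, 6 by edgeR, 64 by DESeq2 and 148 with all 3 groups in 1 fit. The Shh interaction had 0 genes, or 14 by DESeq2, and the E14.5 interaction 4189. Depth is among the limits of the wound values: the shallowest dermal library held 1407498 reads. Few detected genes did not follow depth alone. Dermal Tg-9233 had 12044 genes at 3920969 reads, and dermal Con-9097 had 17055 genes at 2796521 reads. Epidermal Con-9097 had 11179 genes at 5329678 reads. The cause was not tested.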
